A study of Mus musculus with 18 samples.

Results

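Gene expression in T cells that carried the Foxp3 reporter was compared with that in T cells that did not. All 18 libraries of the series entered this comparison, 12 from 4 Timer+ populations and 6 from 2 Timer- populations, with 3 replicates per population, each from a pool of 3 mice. The animals were female C57/BL6 Foxp3Timer Foxp3-IRES-GFP mice, so every group, the Timer- cells included, carried the Timer transgene and the GFP allele of Foxp3. Their abdominal skin had been treated with 3% oxazolone, a contact sensitiser, and CD4+ T cells were sorted from the draining lymph nodes 5 days later. Timer is a fluorescent protein whose blue form matures to a red one, and in these mice it is driven by Foxp3 transcription. Pers1 cells were sorted for intermediate blue and low red fluorescence, Pers2 cells for much of both, PAt cells for low blue and high red, and Arrested cells for red alone. Tnaive and Teff cells lacked both Timer and GFP and were sorted as CD44lo and CD44hi cells. There was no unsensitised group, and nothing tells Timer+ cells that arose in the thymus from those that arose in the periphery.

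Foxp3 is the transcription factor that defines regulatory T cells (Treg), which restrain the responses of other T cells. Treg take up IL-2 through a high-affinity receptor, carry inhibitory and costimulatory receptors at high levels, and make little IL-2 or CD40 ligand themselves. Many of these products are also made by conventional T cells once activated, which is why a comparison with both resting and activated Timer- cells was of interest. For differences within each group, Pers1 and Pers2 together were set against PAt and Arrested, and Teff against Tnaive.

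The deposited values are log2 of normalised counts, in the form of a regularised log transform. Each value is on that log2 scale, and a log2 fold change is the mean of the 4 Timer+ population means minus the mean of the 2 Timer- population means. Of 15402 genes, the 13190 with a mean of at least 3 over the 18 libraries were tested by limma. A gene was called at a Benjamini-Hochberg adjusted p under 0.05 with an absolute log2 fold change over 1. A gene was termed separated when all 12 Timer+ libraries lay above, or all 12 below, each of the 6 Timer- libraries, and the gap is the log2 distance between the nearest libraries of both groups. Separated genes were picked by their values, so their Timer+ differences are given as descriptions, and an adjusted p for that difference is given only for members of the gene lists.

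In the Timer+ populations 615 genes were called higher and 226 lower, 4.66% and 1.71% of the tested genes. Separation held for 446 genes that were higher and 339 that were lower, 3.38% and 2.57% of the tested genes. Both conditions were met by 218 higher and 113 lower genes, 331 in all. The other 228 and 226 separated genes differed by less than the threshold of 1, down to an absolute log2 fold change of 0.13 among the higher and 0.117 among the lower ones. The median gap was 0.202 for the higher and 0.146 for the lower genes, and a gap of at least 1 was reached by 45 and 22 genes. Just inside the limit lay Tet3, with a gap of 0.000262, and Mical2, with 0.000315, and just outside it lay Secisbp2 and Nans, with overlaps of less than 0.001. The direction of the separated genes as a whole was not firm. As deposited 56.8% of them were higher in Timer+ cells, with the median of each library set equal 44.8%, and after quantile normalisation 51.5%. Among called genes the same shares were 73.1%, 67.5% and 67.2%.

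Foxp3, on chromosome X from 7573644 to 7595245 (GRCm38), is the gene whose reporter was used for the sort and serves here as a check of the labels. Its values ran from 14.36 to 14.85 in the 12 Timer+ libraries, with a median of 14.57. In the Timer- libraries they were 11.27, 11.37 and 11.38 in Tnaive and 10.38, 10.59 and 10.64 in Teff cells. No Timer- library came near the Timer+ libraries, and the gap of 2.97 was one of the 5 widest among the higher genes. Foxp3 overlaps Ccdc22 and Ppp1r3f on the opposite strand. Ccdc22 was separated too (log2 fold change 1.65), and it also lay lower in Teff than in Tnaive cells (-0.91, adjusted p = 1.12e-09 by limma), as Foxp3 did (-0.81, adjusted p = 1.7e-09). The kit was stranded, but whether reads were counted by strand is not given in the sources used here, so reads of this pair may be shared.

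The promoters of a few separated genes are shown as examples of the motifs searched and were chosen because they hold one. Of 66 windows of named separated genes 17 held a forkhead, GATA or ETS motif. Sequences are from the RefSeq promoter table (GRCm38.p6), in which 9938 of the tested genes and 242 of the 331 called and separated genes had at least 1 window of 300 bases, from 250 before to 50 after a transcription start. The 250 bases before the start are printed 5′ to 3′ on the gene's strand, and capitals mark a motif on either strand. The letters searched were TGTTTAC for forkhead factors, which include Foxp3 itself. For GATA factors, a family whose member Gata3 is made by T cells, they were AGATAA. For ETS factors, which are widespread at promoters of active genes, they were CCGGAAG. The first line is 1 of 2 Foxp3 windows, the other of which has none of the motifs searched, the next ones belong to higher genes with a GATA motif, and the last to Tcf7, a lower gene with an ETS motif in this stretch and a forkhead motif in the 50 bases after the start.
Foxp3, chrX:7580233-7580482, plus strand: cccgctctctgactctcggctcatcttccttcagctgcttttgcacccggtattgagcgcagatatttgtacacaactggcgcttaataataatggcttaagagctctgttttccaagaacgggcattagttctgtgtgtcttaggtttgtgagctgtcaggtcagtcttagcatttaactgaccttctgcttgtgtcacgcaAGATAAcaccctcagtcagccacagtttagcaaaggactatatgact
Il1rl1, chr1:40439379-40439628, plus strand: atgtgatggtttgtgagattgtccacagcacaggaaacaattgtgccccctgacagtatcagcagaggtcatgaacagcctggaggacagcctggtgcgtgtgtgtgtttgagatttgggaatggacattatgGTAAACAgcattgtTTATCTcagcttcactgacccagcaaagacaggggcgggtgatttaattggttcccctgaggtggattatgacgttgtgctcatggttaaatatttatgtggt
Ccr8, chr9:120091883-120092132, plus strand: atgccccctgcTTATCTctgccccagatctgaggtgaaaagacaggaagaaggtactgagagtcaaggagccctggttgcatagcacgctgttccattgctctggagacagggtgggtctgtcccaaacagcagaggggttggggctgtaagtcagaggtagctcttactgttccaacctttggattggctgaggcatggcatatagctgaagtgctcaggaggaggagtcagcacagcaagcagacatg
Rln3, chr8:84044980-84045229, minus strand: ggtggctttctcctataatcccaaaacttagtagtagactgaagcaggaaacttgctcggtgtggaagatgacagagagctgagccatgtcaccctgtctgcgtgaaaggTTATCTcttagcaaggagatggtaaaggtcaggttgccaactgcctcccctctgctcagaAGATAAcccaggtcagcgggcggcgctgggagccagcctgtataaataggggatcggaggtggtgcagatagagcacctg
Tcf7, chr11:52282596-52282845, minus strand: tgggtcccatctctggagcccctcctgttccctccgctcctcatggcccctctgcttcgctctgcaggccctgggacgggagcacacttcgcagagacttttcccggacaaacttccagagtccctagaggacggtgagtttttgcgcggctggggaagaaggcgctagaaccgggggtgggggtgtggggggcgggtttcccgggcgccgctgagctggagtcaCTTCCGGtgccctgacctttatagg
In these stretches the GATA motif begins 47 bases before the Foxp3 start and 239 before that of Ccr8, and Rln3 has 2, at 140 and 80 bases. Il1rl1, which encodes the IL-33 receptor, has a forkhead motif at 117 and a GATA motif at 103 bases before its second start. Over whole windows the GATA motif was found in 11.7% of 213 windows of called and separated higher genes, 9.26% of 108 windows of the lower ones and 6.79% of all 12578 windows. The ETS motif was found in 4.23%, 11.1% and 17.2%. The forkhead motif was found in 3.29%, 2.78% and 2.59%. For the AP-1 motif (TGANTCA) the shares were 6.57%, 6.48% and 4.98%, for the Runx motif (TGTGGTT) 2.82%, 0.926% and 3.88%, and for the E-box (CACGTG) 7.98%, 6.48% and 9.68%. No motif searched contains another. Over all separated genes the shares in higher and lower genes were 8.42% and 7.61% for GATA, 3.89% and 3.94% for Runx, 9.07% and 11% for the E-box, 6.48% and 5.35% for AP-1, 9.29% and 11% for ETS, and 2.38% and 1.13% for forkhead. The Runx share of the called lower genes rests on 1 window. The shares were not tested, and a match of letters is no evidence of binding.

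Genes long used to recognise Treg were all higher in Timer+ cells. Of 24 such genes, 24 were called higher, against 4.66% of all tested genes, with a median log2 fold change of 2.94 where that of all tested genes was -0.005. Separation held for 19 of the 24, where 3.38% of all tested genes were separated higher. The list was written with earlier results of these data known, and Foxp3 itself is tied to the sort.

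The widest gap of all belonged to Lrrc32, which encodes GARP, the surface protein that holds latent TGF-β on Treg. Its Pers1 libraries stood at 12.94, 12.70 and 12.62, and those of Pers2 at 13.46, 13.49 and 13.22. The PAt libraries stood at 14.06, 13.83 and 13.83, and the Arrested ones at 13.64, 13.47 and 13.07. In Tnaive cells it had 5.70, 5.53 and 5.48, and in Teff cells 5.58, 5.70 and 5.58. The Timer- libraries lay together regardless of CD44, and the Timer+ libraries stood above them by 7.77 on average (standard error 0.07), with a gap of 6.92. Teff and Tnaive cells differed by 0.05 (standard error 0.12, adjusted p = 0.745). Lrrc32 was lower in the persistent than in the PAt and Arrested populations by a small amount, -0.58 (adjusted p = 2.03e-06).

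Il2ra, the α chain of the IL-2 receptor (CD25), had the second largest difference, 6.01 (standard error 0.06), with a gap of 4.44. Its values ran from 13.72 to 14.67 in Timer+ libraries. They were 7.24, 7.18 and 7.50 in Tnaive and 8.83, 9.0 and 9.28 in Teff cells, so activated Timer- cells had more than resting ones (1.73, adjusted p = 1.86e-12) while remaining far below every Timer+ library. Il2rb, the β chain, was called as well (2.85, adjusted p = 1.44e-22), but here Teff cells came close. They had 13.82 to 13.86, the Timer+ libraries 14.19 to 15.15 and Tnaive cells 9.92 to 10.24, and the gap was 0.33.

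The Ikaros family member Ikzf4 (Eos), a partner of Foxp3 in repression, had 10.78 to 12.52 in Timer+ libraries, 8.66, 8.78 and 8.66 in Tnaive cells and 7.14, 6.97 and 7.45 in Teff cells. Its Timer+ difference was 3.74 (standard error 0.06), and Teff cells were below Tnaive cells by 1.51 (adjusted p = 1.08e-11). Ikzf2 (Helios) went the other way within the Timer- cells. It had 7.68, 7.76 and 8.05 in Tnaive but 12.52, 12.39 and 12.43 in Teff cells, a difference of 4.62 (adjusted p = 1.01e-20), and the Timer+ libraries, at 14.05 to 15.06, were still above both. Nrp1, a semaphorin co-receptor used as a marker of thymic Treg, showed this to the extreme. Tnaive cells had 7.95, 7.6 and 8.10, Teff cells 12.90, 12.96 and 12.99, and the Timer+ libraries 13.15 to 13.52. The Timer+ difference was 2.94 against both and 5.47 against Tnaive cells alone. Against Teff cells alone it was 0.40, under the threshold, with 0.41, 0.42, 0.51 and 0.28 for Pers1, Pers2, PAt and Arrested cells, whose 4 comparisons share the same Teff libraries.

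Other surface molecules of the Treg identity list were separated too. The TNF receptor family member Tnfrsf18 (GITR), a costimulator, had 11.99 to 13.00 in Timer+ and 10.15 to 10.71 in Timer- libraries (2.04, adjusted p = 3.47e-20). Tnfrsf4 (OX40) had 12.24 to 13.88 against 8.87 to 9.11 in Tnaive and 10.96 to 11.21 in Teff cells. Tnfrsf9 (4-1BB) stood at 10.97 to 12.70 against 8.40 to 9.49. Of 20 tested members of that receptor family and its adaptors, 5 were called higher (25%, beside 4.66% of all tested genes) and none lower. These 5, Tnfrsf1b, Tnfrsf4, Tnfrsf8, Tnfrsf9 and Tnfrsf18, were also the separated ones, where 3.38% of all tested genes were separated higher. The gap was narrow in Tnfrsf1b (0.44) and in Tnfrsf8 (0.16), which is not in the Treg identity list. The integrin subunits Itgae (CD103) and Itgb8, which bind E-cadherin and activate TGF-β respectively, had differences of 4.33 (adjusted p = 4.32e-24) and 2.77 (adjusted p = 6.28e-16). Klrg1, an inhibitory lectin receptor of differentiated cells, had 4.66 to 4.97 in all 6 Timer- libraries, and 9.08 to 10.34 in the persistent but 7.14 to 8.10 in the PAt and Arrested libraries. Gpr83, a G protein-coupled receptor of Treg, ran in the opposite order, with 11.23 to 11.41 in PAt cells and 9.34 to 9.75 in the persistent populations against 7.05 to 8.64 in Timer- cells.

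The 5 list members that were called but overlapped were Ctla4, Icos, Tigit, Cd83 and Izumo1r, and in each the overlap was with Teff cells alone. Icos, a costimulatory receptor, had 15.39 to 15.75 in the persistent populations, 14.21, 14.36 and 14.39 in Teff cells and 12.91 to 13.17 in PAt and Arrested cells, so Teff cells lay between the Timer+ populations. Against Teff cells alone its Timer+ difference was -0.01 (adjusted p = 0.867 by limma). Tigit, an inhibitory receptor, was at 10.74 to 11.24 in PAt and Arrested and 11.63 to 11.67 in Teff cells. Ctla4, which removes CD80 and CD86 from antigen-presenting cells, was 13.18 to 13.94 in PAt and Arrested cells. Its overlap was between libraries of different replicate numbers. In order of replicate, Arrested cells had 13.69, 13.39 and 13.18 and Teff cells 13.48, 13.19 and 12.79. Each Timer+ library lay above the Teff library of its number, and Ctla4 was called higher against Teff cells alone as well. With Teff cells as the only reference 18 of the 24 list members were called, all higher, beside 270 of all 13190 tested genes called higher. With Tnaive cells all 24 were called higher, beside 1065 of the 13190.

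**Figure D1:**
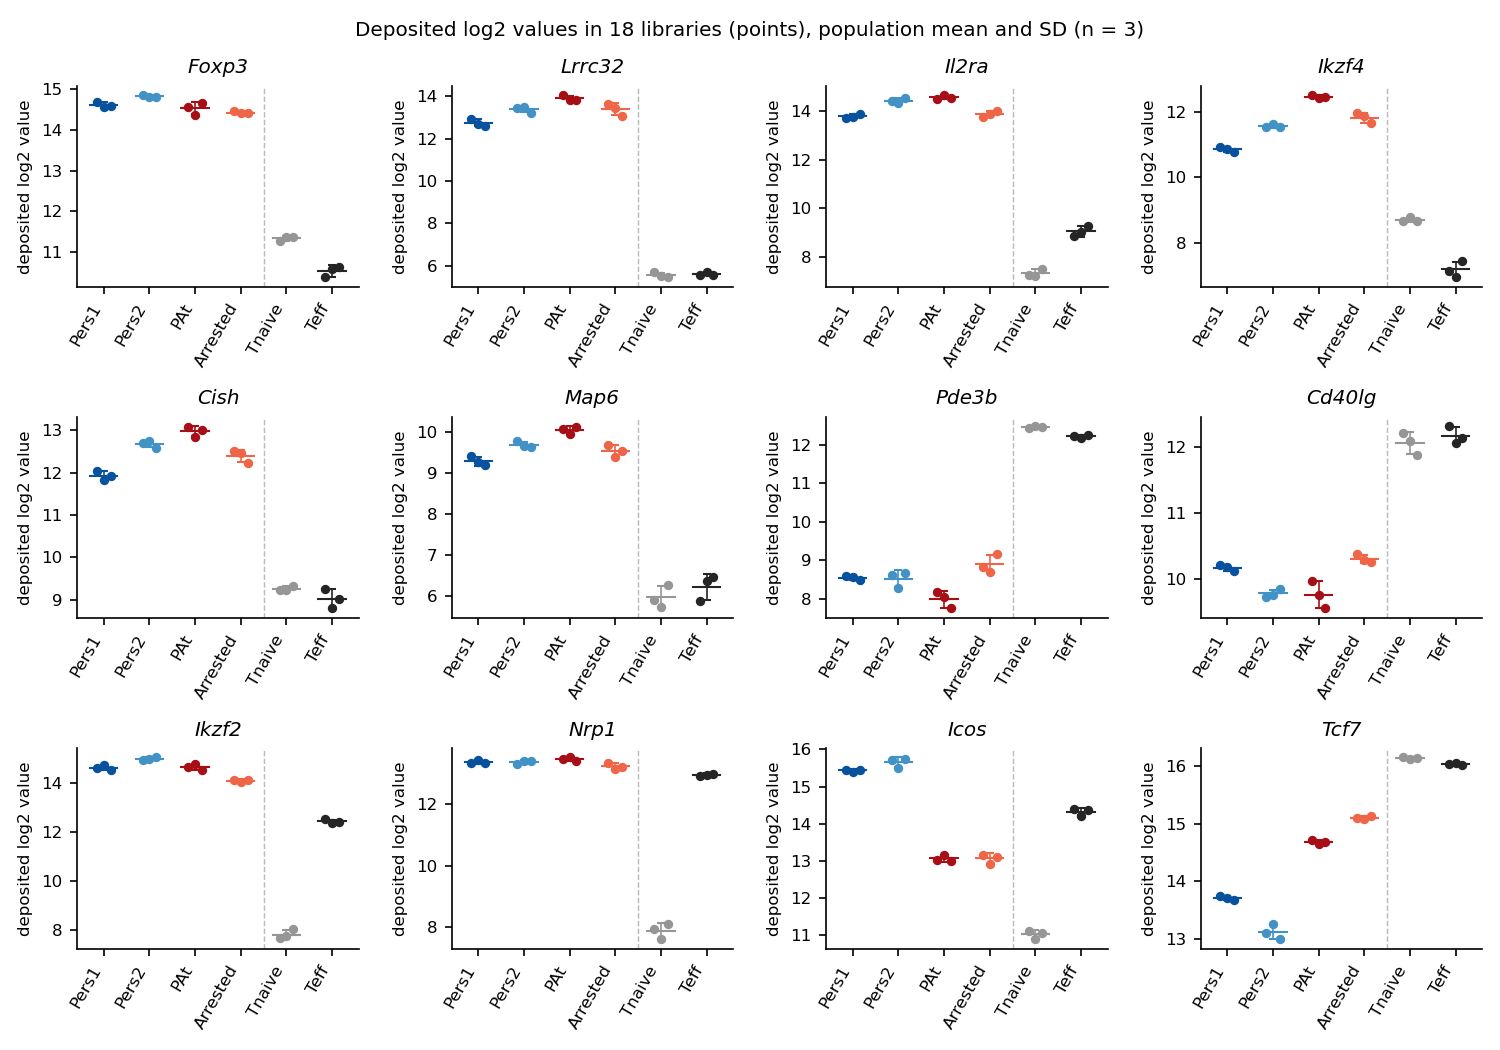
Deposited log2 values (vertical axes, each with its own range) of 12 genes in the 18 libraries. Points are libraries, bars the population mean and error bars the SD (n = 3), and the dashed line divides Timer+ from Timer- populations. For Lrrc32, Foxp3, Cish and Map6 both Timer- populations lie low, for Ikzf2 and Nrp1 Teff cells lie near the Timer+ populations, and for Icos Teff cells lie among them.

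Products of Treg that act on other cells were mostly called higher. Of 15 tested suppressive mediators 11 were called higher (73.3%, beside 4.66% of all tested genes), with a median log2 fold change of 1.88. Separation, which held for 3.38% of all tested genes, held for 4 of the 15, Entpd1, Nt5e, Areg and Itgav, of which Itgav missed the threshold. Entpd1 and Nt5e (CD39 and CD73) turn extracellular ATP into adenosine in successive steps. Entpd1 had 9.47 to 11.06 in Timer+, 5.56 to 5.83 in Tnaive and 8.54 to 8.65 in Teff libraries. Nt5e had 12.72 to 13.21, 9.50 to 9.65 and 11.88 to 12.08. The growth factor Areg had 5.77 to 7.73 against 4.61 to 5.22. Gzmb, the cytotoxic protease granzyme B, was called (4.03, adjusted p = 4.34e-18) but ran from 6.87 to 13.52 within the Timer+ libraries, and the Arrested libraries, at 6.87 to 7.6, overlapped Teff cells, at 6.93 to 7.48. Against Teff cells alone 6 mediators were called higher and 1, Lag3, lower, beside 270 and 449 of all 13190 tested genes.

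The IL-2 receptor and its STAT5 pathway were higher in part. Of 18 tested members, receptor chains included, 5 were called higher (27.8%, beside 4.66% of all tested genes). These were Il2ra and Il2rb and, downstream of the receptor, Cish, Pim1 and Socs2. Separation held for 7 higher members and 1 lower, where 3.38% and 2.57% of all tested genes were separated. No member was called lower, and the list's median was 0.38. Cish and Socs2 are feedback inhibitors induced by STAT5. Cish had 11.82 to 13.08 in Timer+, 9.22 to 9.33 in Tnaive and 8.80 to 9.25 in Teff libraries, a difference of 3.35 (adjusted p = 3.7e-21). Socs2 had 10.27 to 11.32, 5.24 to 5.38 and 6.62 to 7.0 in the same order, a difference of 4.78 (adjusted p = 8.6e-24). The kinase Pim1 differed by 1.65, with a gap of 0.96 and differences of 0.14 (adjusted p = 0.153) and 0.10 (adjusted p = 0.53) within the Timer+ and the Timer- cells. Pim2, its relative, was separated the other way (-0.60). Stat5a and Il15ra were separated by margins of 0.01, with differences of 0.34 and 0.36.

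Genes that earlier work on Foxp3 describes as repressed by it were lower in part. Of 10 tested, 6 were called lower, against 1.71% of all tested genes, none higher and 4 not called. Separation held for 4, all lower, where 2.57% of all tested genes were separated lower. Against Teff cells alone 4 of the 10 were called lower, beside 449 of all 13190 tested genes. The largest difference was that of Pde3b, a phosphodiesterase that breaks down cyclic AMP, at -3.85 (standard error 0.07, adjusted p = 9.85e-21). It had 7.75 to 9.17 in the 12 Timer+ libraries, 12.43, 12.48 and 12.47 in Tnaive and 12.24, 12.19 and 12.26 in Teff cells. The groups were 3.02 apart, the widest gap among lower genes, and neither activation difference reached a log2 of 0.25 (0.09 in Timer+ and -0.23 in Timer- cells). Cd40lg, the ligand by which helper T cells activate B cells, had 9.56 to 10.38 in Timer+, 11.89 to 12.22 in Tnaive and 12.07 to 12.32 in Teff libraries (-2.12, adjusted p = 4.69e-18). Tcf7 (TCF-1), a factor of naive and memory T cells, had 16.02 to 16.16 in all Timer- libraries, with no difference called between Teff and Tnaive cells (-0.10, adjusted p = 0.0966). In Timer+ cells it stood in steps, at 15.09 to 15.13 in Arrested, 14.64 to 14.72 in PAt, 13.68 to 13.74 in Pers1 and 13.00 to 13.25 in Pers2 cells. Il7r and Lef1 were called and not separated, and against Teff cells alone the Il7r difference was -0.56, under the threshold.

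Of the helper cytokines lower in Timer+ cells, Il4 and Il21 were high in Teff cells alone and Cd40lg in both Timer- populations. Of 15 tested cytokines and TNF ligands, 4 were called lower (26.7%, beside 1.71% of all tested genes), Il4, Il21, Cd40lg and Tnfsf8. Only Cd40lg was separated, where 2.57% of all tested genes were separated lower. Il21 had 10.25 to 10.60 in Teff cells, 4.77 to 5.42 in Tnaive and 3.84 to 4.82 in Timer+ libraries. Il4 was likewise highest in Teff cells, at 7.94 to 8.64, and against Tnaive cells alone its Timer+ difference was 0.50. With Teff cells as the only reference 8 were called lower and none higher, beside 449 and 270 of all 13190 tested genes.

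Components of T-cell receptor signalling mostly differed by small amounts. Of 29 tested, 2 were called, both lower (6.9%, beside 1.71% of all tested genes). Separation held for 6 lower members, Cd247, Cd4, Lck and Themis among them, and for 2 higher ones, Cd5 and Cd6, which restrain receptor signals. The gap rounded to 0.00 for Lck, whose difference was -0.29, and was 0.11 for Cd6. Of all tested genes 2.57% were separated lower and 3.38% higher. Cd4 had 14.47 to 14.77 in Timer+ libraries, 15.03 to 15.09 in Tnaive and 15.66 to 15.70 in Teff cells, and Cd247, the ζ chain, 13.33 to 13.55 against 13.93 to 14.29. Cd5 had 14.49 to 14.85 against 14.15 to 14.25. Themis, an adaptor of thymocyte selection, had the largest difference, with 10.43 to 11.33 against 12.61 to 12.78 (-1.89, adjusted p = 1.9e-17).

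Among 51 regulators and partners of Foxp3, 6 were called higher (11.8%, beside 4.66% of all tested genes) and 1 lower (1.96%, near the 1.71% of all tested genes), and the median was 0.08. Prdm1 (Blimp-1) was separated although it followed activation within Timer+ cells. It had 8.78 to 8.86 in all Timer- libraries, 9.34 to 9.76 in PAt and Arrested cells and 12.29 to 12.66 in the persistent populations (2.97 between these, adjusted p = 1.3e-19). In Timer- cells it did not follow CD44, with 0.06 between Teff and Tnaive cells (adjusted p = 0.576). Id2, an inhibitor of E proteins, was lower in Timer+ cells, with 9.91 to 10.98 against 11.13 to 11.76. The Ikaros factors split, Ikzf3 (Aiolos) being separated higher (1.18) and Ikzf1 (Ikaros) lower, at a log2 fold change of -1.0 that just missed the threshold.

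Activation and cell-cycle genes were called more often than other genes, and their separated counts were near those of all tested genes. Of 26 activation genes 14 were called higher (53.8%, beside 4.66% of all tested genes) and 1 lower, with 1 separated each way (Prdm1 and Id2), where 3.38% and 2.57% of all tested genes were separated. Of 26 cell-cycle genes 17 were called higher and 0 were separated. Mki67, the proliferation marker Ki67, had 11.46 at its lowest and 14.62 at its highest in Timer+ cells, and Teff cells, at up to 12.69, lay inside that range. Against Teff cells alone 0 cell-cycle genes were called, beside 270 higher and 449 lower of all 13190 tested genes. The list's median was then 0.51. S100a6, a calcium-binding protein of activated cells, was called at 2.25, but against Teff cells alone its difference was -0.39, and that of the transcription factor Maf went from 2.09 to -0.64. Of 21 naive-cell genes 8 were called lower (38.1%, beside 1.71% of all tested genes). Of these 8 genes 3 were separated (Tcf7, Dapl1 and Actn1), where 2.57% of all tested genes were separated lower. Igfbp4, called at -1.67, was 0.57 higher than in Teff cells. Of 15 follicular helper genes 2 were called higher (13.3%) and 4 lower (26.7%), beside 4.66% and 1.71% of all tested genes, and none was separated, where 3.38% and 2.57% of all tested genes were. Among 28 homing receptors and integrins 11 were called higher (39.3%) and 2 lower (7.14%), beside 4.66% and 1.71% of all tested genes. The 5 separated ones, all higher, were the chemokine receptors Ccr3, Ccr6 and Ccr8 with Itgae and Itgb8, where 3.38% of all tested genes were separated higher. Ccr8, a skin-homing receptor, had 8.73 to 11.03 in Timer+ and 6.94 to 7.6 in Timer- libraries.

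**Figure D2:**
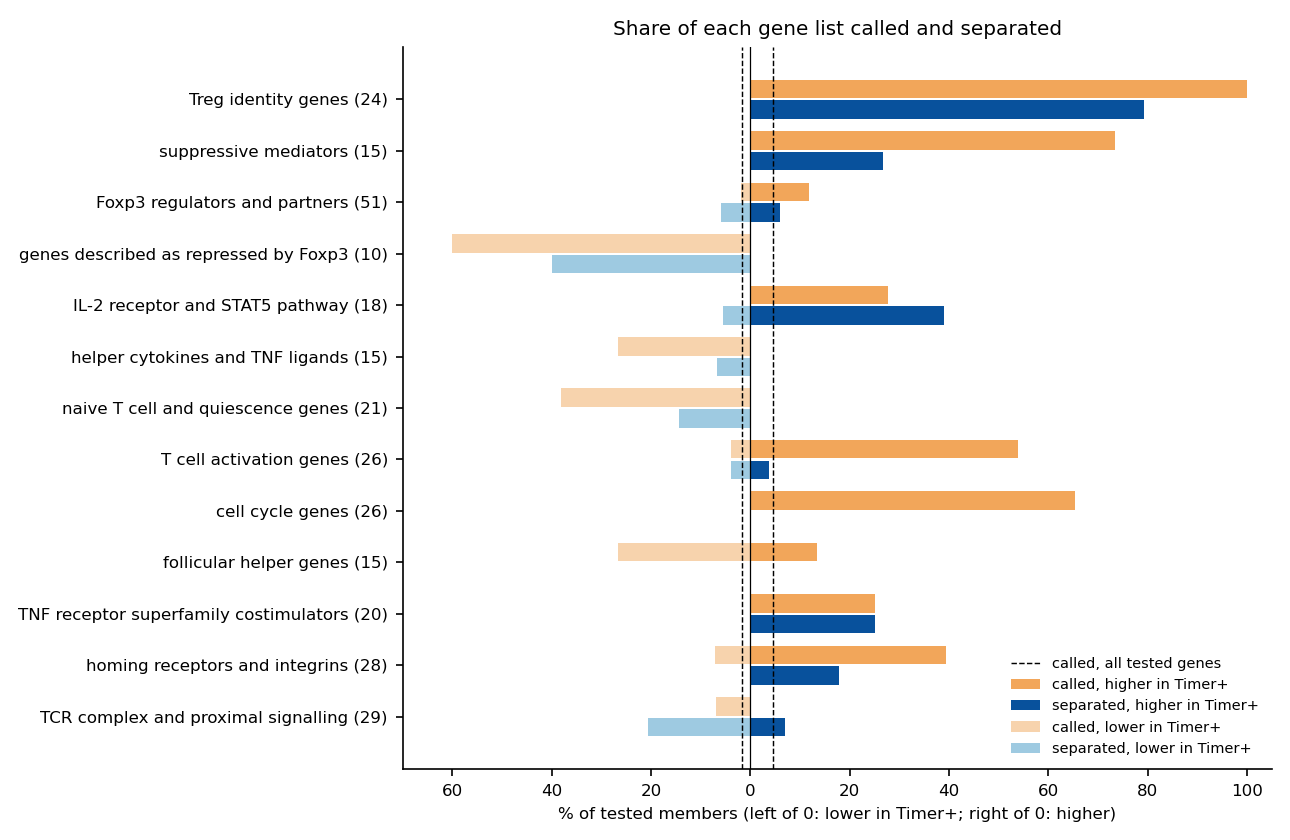
Share of the tested members of 13 gene lists (number tested in brackets) that were called (orange) and separated (blue), in percent, with higher in Timer+ to the right of 0 and lower to the left. Dashed lines mark the called shares of all tested genes, 4.66% and 1.71%. Treg identity genes are called and mostly separated. Of 26 cell-cycle genes 17 are called and 0 separated, the latter near the separated shares of all tested genes, 3.38% and 2.57%, which are not drawn.

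Over all genes, overlap was mostly with Teff cells. Of the 615 genes called higher, 397 were not separated, and in 373 of these the overlap was with Teff libraries alone, in 16 with Tnaive libraries alone and in 8 with both. Of the 226 called lower, 113 were not separated, 75 by overlap with Tnaive libraries alone, 35 with Teff libraries alone and 3 with both. Among the separated genes the nearer Timer- population was Teff for 307 of 446 higher and 190 of 339 lower genes. The nearest Timer+ population was Arrested or Pers1 for 189 and 188 of the higher genes, and Arrested for 177 of the lower ones.

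**Figure D3:**
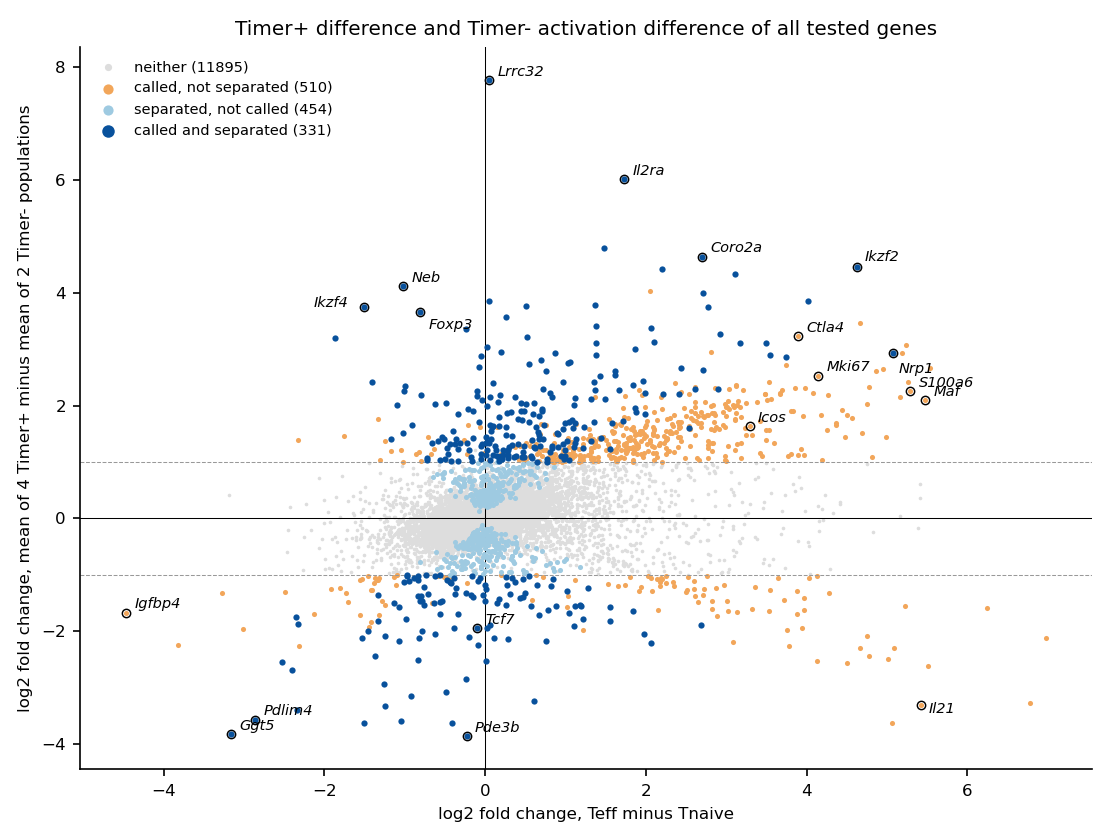
Log2 fold change of Timer+ against Timer- populations (vertical) and of Teff against Tnaive cells (horizontal) for the 13190 tested genes. Dashed lines mark an absolute log2 fold change of 1. Of the 331 called and separated genes (dark blue) 107 were also called between Teff and Tnaive cells, and of the 397 called higher but not separated (orange) 373 overlapped Teff libraries alone.

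How the separated genes varied within each group was tested, since these contrasts were not part of the Timer+ difference. Separation favours genes with small differences within the groups, so the counts are read beside those of all genes. Between the persistent and the PAt and Arrested populations, 64 of all 785 separated genes were called (8.15%), close to the 7.51% of all tested genes. Between Teff and Tnaive cells it was 109 of 785 (13.9%), beside 11.2% of all tested genes. Nearly all of these lay among the 331 genes with a Timer+ difference over the threshold, of which 60 (18.1%) and 107 (32.3%) were called. That threshold is a further choice by values, so these shares are descriptions. Among the 218 higher genes 64 were higher and 8 lower in Teff than in Tnaive cells, whereas between the Timer+ populations 22 were called higher and 17 lower in Pers1 and Pers2. Among the 113 lower genes 20 were lower and 1 higher in the persistent populations.

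Among called and separated genes the largest Timer+ differences after those of Lrrc32, Il2ra and Socs2 were those of Coro2a, a coronin that binds actin (4.64), Ikzf2, Lamc1, a laminin chain (4.42), Itgae, Neb, the giant actin-binding protein nebulin (4.12), Il1rl1 (3.99) and Osbpl3, an oxysterol-binding protein (3.86). Coro2a had 12.05 to 13.45 in Timer+ libraries, 6.69 to 7.27 in Tnaive and 9.50 to 9.67 in Teff cells. Neb had 11.03 to 13.64 against 8.44 to 8.85 in Tnaive and 7.25 to 7.79 in Teff cells. Il1rl1 had 9.44 to 9.56 in Arrested, 10.29 to 10.76 in PAt and 11.06 to 11.28 in Pers1 cells against 5.29 to 5.52 in Tnaive and 7.92 to 8.34 in Teff cells. The lowest after Pde3b were Ggt5, a γ-glutamyltransferase that converts leukotriene C4 (-3.81), the transporter gene Slc16a5 (-3.62), App, the amyloid precursor protein (-3.61), Dapl1 (-3.58) and Pdlim4 (-3.56). App had 4.76 to 6.46 in Timer+ against 8.82 to 9.57 in Timer- libraries. Ggt5 and Pdlim4 were nearer to the Timer+ libraries in Teff cells, at 7.33 to 7.76 and 7.91 to 8.27, than in Tnaive cells, at 10.68 to 10.82 and 10.84 to 11.06. Lypd6b, Atp8b4, Ntrk3 and Hs3st3b1 completed the lowest 10, with differences of -3.39 to -3.15.

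A smaller set differed between Timer+ and Timer- cells and little in either activation contrast. The contrast within Timer+ cells averages Pers1 with Pers2 and PAt with Arrested, so differences inside these pairs are not limited. Called and separated genes with an absolute log2 difference under 0.5 in both activation contrasts numbered 45 higher and 21 lower, 20.6% and 18.6% of the called and separated genes. Without the threshold on the Timer+ difference 230 of 446 separated higher (51.6%) and 210 of 339 separated lower genes (61.9%) met that limit, as did 60.6% of all tested genes. The limit decides the number, with 16 and 6 genes at 0.25 and 119 and 65 at 1. The 8 largest of the higher ones were Map6, Cish, Rln3, Acsbg1, Wls, Colq, Tnfrsf18 and Tmem158. Map6, which stabilises microtubules, had 9.19 to 10.14 in Timer+, 5.73 to 6.26 in Tnaive and 5.86 to 6.45 in Teff libraries, a difference of 3.56. Rln3, a relaxin-family peptide, had 7.79 to 8.97 against 5.35 to 5.69. Its activation differences were 0.03 in Timer+ and -0.05 in Timer- cells, small by the choice of this set. Its means were 8.02 in Pers1 and 8.85 in Pers2 cells, and those of Colq 9.30 and 10.22 and of Wls 10.36 and 11.20. Acsbg1, an acyl-CoA synthetase, had 11.04 to 11.86 against 8.97 to 9.15. Wls, which carries Wnt proteins to the surface, had 10.26 to 11.31 against 8.34 to 8.88. Colq and Tmem158 differed by 2.16 and 1.99.

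The 8 largest of the lower ones were Pde3b, Il1rl2, Dntt, Klrd1, Cd40lg, Appl2, Abhd15 and Themis. Il1rl2, the receptor of IL-36, had 5.78 to 6.45 in Timer+ and 8.57 to 8.84 in Timer- libraries. Dntt, the terminal transferase of immature lymphocytes that adds bases at receptor gene joints, had 4.31 to 5.14 against 6.64 to 7.27. Klrd1 (CD94), a lectin receptor of NK cells and some T cells, had 5.03 to 6.16 against 7.50 to 8.16. The adaptor gene Appl2 and Abhd15 had differences of -1.94 and -1.93.

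**Figure D4:**
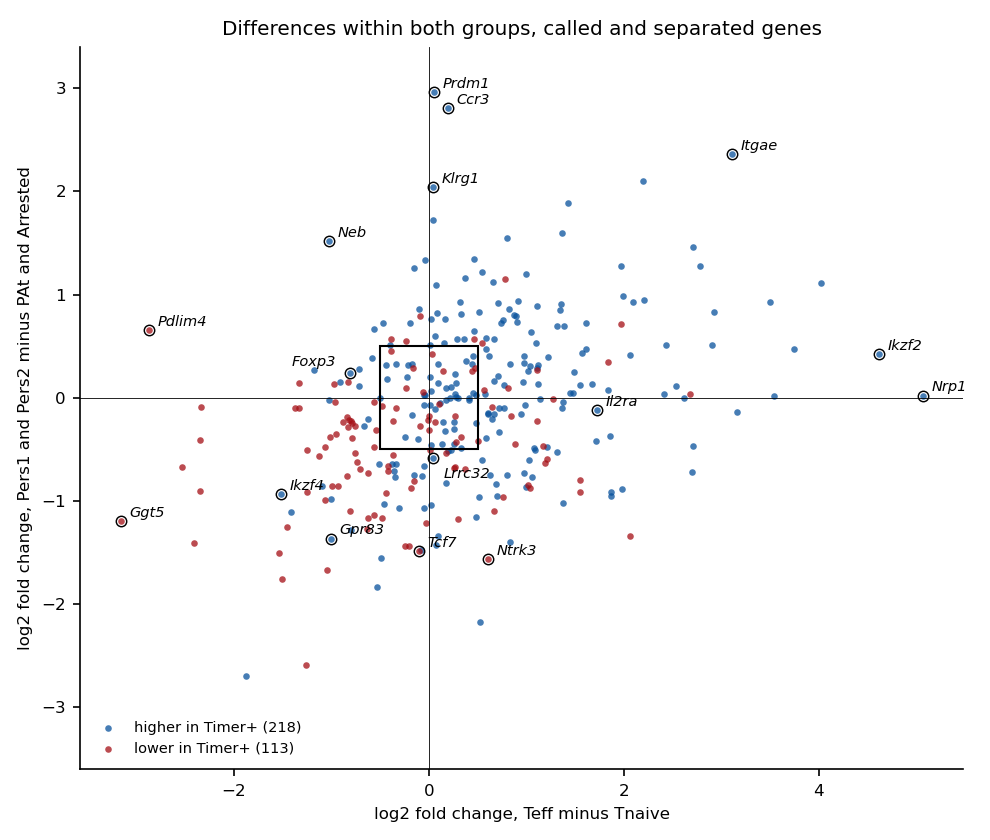
Log2 fold change within Timer- cells (horizontal, Teff minus Tnaive) and within Timer+ cells (vertical, persistent minus PAt and Arrested) for the 218 higher (blue) and 113 lower (red) called and separated genes. The square holds the 45 and 21 genes with absolute differences under 0.5 on both axes, and Nrp1, Ikzf2 and Itgae lie far to the right of it.

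Over all 18 libraries the 5 genes whose values were most like those of Foxp3 were Dennd5a (Pearson r 0.985), Lrrc32 (0.982), Acsbg1 (0.980), Ccdc22 (0.977) and Cish (0.972). The libraries form a Timer+ and a Timer- cluster, so any gene with a wide gap scores high and no p is given. Dennd5a, which regulates endosomal traffic, had 11.81 to 12.58 in Timer+ and 10.13 to 10.42 in Timer- libraries.

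By position, 12657 of the tested genes could be placed once in GENCODE vM21 (GRCm38). Chromosome 1 held 7.89% of the separated higher genes and 3.98% of the lower ones, where it held 5.64% of the tested genes. Chromosome 11 held 6.5%, 11% and 8.61%. Chromosome X, which carries Foxp3, held 3.25%, 3.67% and 3.26%. Of 12637 pairs of neighbouring tested genes 73 (0.578%) were separated in the same direction, 46 higher and 27 lower, and in 26 both genes were called. These included Tnfrsf4 and Tnfrsf18, whose pair spans chromosome 4 from 156013843 to 156028895, Tnfrsf8 and Tnfrsf1b on the same chromosome from 145213463 to 145315164, and Foxp3 with Ccdc22. On chromosome 3, Gbp5, Gbp7, Gbp3 and Gbp2b lay side by side between 142493978 and 142619179, but these interferon-induced genes are near copies of each other, and their reads may not be told apart. Ggt1 and Ggt5, on chromosome 10 from 75561604 to 75617200, were neighbours among the lower genes and are likewise related.

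Marker genes of other cell types were measured beside these results. The T-cell list summed to 16.91 to 17.17 (log2 of the summed normalised counts) in Timer+ and 17.05 to 17.42 in Timer- libraries. Markers of plasmacytoid dendritic cells were highest in Teff cells, at 12.89 to 13.37 against 11.13 to 11.88 in the other populations, and those of conventional dendritic cells were 10.34 to 10.61 in Teff cells against 6.78 to 7.25 elsewhere. Macrophage or monocyte markers were 10.65 to 10.99 in Teff cells against 8.30 to 9.45. Of these lists 3 of 8, 3 of 6 and 3 of 6 tested markers were called lower in Timer+ cells and 0 were separated. Of all tested genes 4.66% were called higher and 1.71% lower, and 3.38% and 2.57% were separated. These shares stand beside the counts of every marker list here, and in lists this short a count of 0 is near them. NK-cell markers were 7.20 to 7.69 in Timer+ and 8.97 to 9.42 in Timer- libraries, in Tnaive as in Teff cells. Of 4 tested, 1 was called lower and separated, Eomes, a factor also made by T cells, and it was lower in the same libraries as Klrd1, which is not in that list. B-cell markers ran from 10.79 to 12.21 in Timer+ and from 9.87 to 12.58 in Timer- libraries, and 0 of 8 were called. CD8 markers ran from 9.65 to 10.70 in Timer+ and from 10.31 to 10.61 in Tnaive libraries and 11.51 or more in Teff cells, with Cd8a called lower. Of the list for stroma or endothelium, at 11.86 to 12.87 and 12.77 to 13.08, 1 of 3 tested markers, Cdh5, was called lower and separated. No neutrophil or erythroid marker passed the filter on low values. The part of these cells in the Timer+ differences was not tested. In sorted bulk samples fewer cells of a type and less RNA per cell cannot be told apart.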

How the data were processed

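RNA of 18 libraries was sequenced as paired-end reads of 100 bp. Per the labels and the study's methods, the authors used CASAVA 1.8.2, FastQC 0.11.2, TopHat2 2.0.9 on mm10 and DESeq2. The deposited values are log2 of normalised counts for 15402 genes. They look like a regularised log, with 173 values below 0, and such a transform shrinks fold changes of genes with few reads. With no read counts at hand the sequencing depth of a library is unknown, and the errors given come from differences among replicates. The counting tool and its use of strand are not given in the sources used here.

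Genes with a mean of at least 3 were kept (13190, with 2212 left out). A model with 6 population means (12 residual degrees of freedom) was fitted to the deposited values with limma 3.58.1 in R 4.3.3, with eBayes along a trend and Benjamini-Hochberg adjustment. No pseudocount was added. All adjusted p-values come from limma. The fit was tested on simulated data. Rows whose symbol had become a date (21 tested, 2 of them separated) are not named, and some single genes are not reported here.

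Members, gene lists and motifs were chosen with earlier results of these data known. Named are Foxp3, the Treg identity list, the 10 largest differences each way among called and separated genes, the 8 largest each way among those with small activation differences, the 5 widest gaps each way, the leading called and the separated members of each list, and the 5 genes most like Foxp3. Mical2, Secisbp2 and Nans, genes named by position or as markers, and list members named as overlapping or as called against 1 reference were chosen after their values were seen.

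The replicate numbers were taken to pair libraries, since the series' text has all populations sorted from each mouse. The main fit had no replicate term, so the adjusted p-values given do not use this pairing. It entered only in the alternative with a replicate block. Between populations, deviations from population means had a median correlation of 0.166 for 45 pairs with the same number (-0.206 to 0.436) and -0.064 for 90 pairs with different numbers. Nothing states that pools were independent experiments, so p-values measure the spread between these pools. Alternatives covered the filter, thresholds, variance model, scaling, replicate block, reference populations and each library left out. Figures were drawn with matplotlib 3.10.9 in Python 3.11.15.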

Additional observations from a re-analysis of the deposited data

Results flagged for a closer look

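In 12 of the genes named for the size or the gap of their Timer+ difference, the activation difference within Timer+ cells (persistent minus PAt and Arrested) differed from that within Timer- cells (Teff minus Tnaive) by more than 1 on the log2 scale, with an adjusted p under 0.05 for the interaction by limma. The difference of the differences was negative for Ikzf2 (-4.20), Osbpl3 (-2.91) and Il1rl1 (-1.25), which were higher in Pers1 and Pers2 and by more in Teff cells. It was negative for Coro2a (-3.43) and Ntrk3 (-2.17), which were lower in the persistent populations and higher in Teff cells. For Il2ra (-1.85) and Socs2 (-1.43) it came with a Teff difference of 1.73 and 1.48 and one of -0.12 and 0.04 within Timer+ cells. It was positive for Pdlim4 (3.52), Ggt5 (1.97) and Lypd6b (1.44), lower genes that fell steeply from Tnaive to Teff cells, and for Neb (2.54) and Foxp3 (1.05), which rose in persistent cells and fell in Teff cells. The Foxp3 value is tied to the sort. The reason for these differences was not tested.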

How the results depend on the processing

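Treg identity genes kept 24 of 24 calls in every fit that left out 1 library and under both other scalings, and of 99 named genes 1 (Ikzf1) gained a call in such a fit and 0 reversed. Leaving out 1 library gave 606 to 618 genes called higher, 219 to 230 lower, 447 to 508 separated higher, 342 to 400 separated lower and 1 to 2 called receptor signalling genes. Fewer libraries make separation easier by construction. With the replicate block 616 and 226 genes were called and 513 and 409 separated, and the block changed the call of 0 named genes.

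Counts moved with the choice of Timer- cells and with the thresholds. With Teff cells alone 270 genes were called higher and 449 lower, and 878 and 1266 were separated. Of the lists, 3 regulators, 5 activation, 0 cell-cycle, 8 cytokine, 4 naive-cell, 7 mediator and 8 TNF receptor genes were then called. Differences turned round for Igfbp4 (0.57), Maf (-0.64), Runx2 (-1.05) and S100a6 (-0.39). The sign also changed for Cxcr3 (-0.21), Icos (-0.01) and S100a4 (-0.10), but with adjusted p of 0.074, 0.867 and 0.541 by limma. With Tnaive cells alone 1065 genes were called higher, 2341 and 1895 were separated, 16 regulators and 7 cytokine genes were called, and Il4 turned round (0.50). With the persistent populations as the only Timer+ cells 415 genes were called lower, and with PAt and Arrested alone 423 and 189 were called higher and lower.

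With 1 mean per group in place of population means, 449 genes were called higher and 199 lower. Of the lists, 5 activation, 7 cell-cycle, 3 follicular helper and 23 Treg identity genes were then called. Icos, Cxcr3, Maf, S100a4, S100a6, Kif11, Runx2, Igfbp4 and Il4 lost their calls (adjusted p from 0.0548 to 0.244 by limma). A threshold of 2 gave 136 higher and 46 lower genes, the adjusted p alone 4163 and 3966, and a gap of at least 0.5 left 122 and 57 separated genes. Genes with small activation differences numbered 16 and 6 below 0.25 and 119 and 65 below 1. Quantile normalisation left 1 called receptor signalling gene. Apart from what the alternatives themselves change (fewer samples or another threshold), the cause was not tested. Depth is unknown, so it was not possible to say which absent differences it limits.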
